A study of Mus musculus with 2 samples.

Results

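Of the 1483 ISL1 binding sites listed for neonatal mouse sinoatrial node cells, 367 were centred within 30 kb of the transcription start site (TSS) of their nearest gene. These 367 peaks made up 24.7% of the list, with an exact Clopper-Pearson 95% interval of 22.6 to 27%, and the other 1116 lay farther away. The rule that chose them used distance alone, taking every annotation class and both sides of the TSS, and neither peak strength nor gene function was part of it. The choice was made with earlier results of these data known. The cells came from Hcn4-H2BGFP mice on an ICR background, in which green fluorescent protein (GFP) fused to a histone marks the nuclei of cells expressing the pacemaker channel gene Hcn4. Sinoatrial nodes were taken between postnatal day 1 and day 3, digested to single cells and sorted by flow cytometry for GFP. Chromatin was fixed with 2 mM disuccinimidyl glutarate for 30 min, a crosslinker between proteins, and then with 1% formaldehyde for 10 min. It was sheared to between 100 and 400 bp and precipitated with 5 µg of the ISL1 antibody 39.4D5. The labels name 1 ISL1 library and 1 input library and no treatment or mutant, and the input library was not analysed here.

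ISL1, a transcription factor with LIM domains and a homeodomain, marks second heart field progenitors and stays expressed in the sinoatrial node, the pacemaker of the heart. Its homeodomain contacts short AT-rich DNA, and its LIM domains bind the bridging protein LDB1, through which distant regulatory elements can be brought to promoters. Chromatin immunoprecipitation with sequencing reports where in the genome such a factor, or a complex that holds it, was crosslinked. It does not show whether the nearest gene responds.

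Every peak spanned 144 bp and had the authors' score, which describes its strength within this list. The scores were whole multiples of 1.37, with none off that step, so 13.7, the median score of the 367 peaks, equals 10 steps. The median of the whole list was 15.1. If 1 step is 1 sequenced tag, which was not tested, counting alone would give 10 steps an interval of 4.8 to 18.4 steps. The library had no replicate, and the number of reads behind it is unknown here. Intervals below cover counting error only, and peaks of 1 library are not replicates of a condition. PCR copies of a fragment are not independent molecules either. Peaks are binding sites, so the labelled cell type could not be checked by expression.

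The DNA under the peaks closest to genes is shown first, because these are the members for which sequence was at hand. A peak was centred between 250 bases before and 50 bases after a TSS in 29 cases. RefSeq's promoter table (GRCm38.p6) held 1 start for 22 of those genes, and for 15 of the 22 the start matched the one used by the authors. The 15 stretches under these peaks, each limited to the bases before the start, included 8 over which no RefSeq gene extends, and the 7 of them that hold at least 50 bases are printed, 5′ to 3′ on the strand of the gene. Capitals mark a GC box, GGGCGG on either strand, or the homeodomain core TAAT on either strand.
Wipi1: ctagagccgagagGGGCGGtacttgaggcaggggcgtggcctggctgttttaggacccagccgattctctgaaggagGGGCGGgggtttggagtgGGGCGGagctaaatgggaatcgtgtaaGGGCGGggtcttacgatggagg
Sde2: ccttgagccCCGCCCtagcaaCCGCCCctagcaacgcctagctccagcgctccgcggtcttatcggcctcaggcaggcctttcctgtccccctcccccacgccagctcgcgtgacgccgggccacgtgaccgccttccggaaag
Lsm8: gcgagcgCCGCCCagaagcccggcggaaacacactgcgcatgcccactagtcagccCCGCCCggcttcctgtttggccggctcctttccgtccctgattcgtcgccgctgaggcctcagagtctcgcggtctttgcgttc
Hsd3b7: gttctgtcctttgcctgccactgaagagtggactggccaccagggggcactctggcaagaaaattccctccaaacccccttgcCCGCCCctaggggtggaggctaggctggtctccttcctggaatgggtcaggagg
Fign: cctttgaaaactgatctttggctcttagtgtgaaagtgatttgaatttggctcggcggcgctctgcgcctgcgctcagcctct
Commd9: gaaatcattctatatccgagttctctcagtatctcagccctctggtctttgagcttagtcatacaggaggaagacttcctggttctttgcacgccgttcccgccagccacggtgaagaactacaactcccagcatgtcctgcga
Il31ra: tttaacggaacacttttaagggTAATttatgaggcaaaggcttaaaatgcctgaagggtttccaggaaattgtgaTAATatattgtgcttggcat

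The Wipi1 stretch (chr11:109611468-109611611, GRCm38.p6, minus strand) held 4 GC boxes in 144 bases and was 62.5% G and C. WIPI1 binds phosphoinositides during autophagy, and its promoter peak had a score of 16.4. Sde2 (chr1:180850901-180851044, plus strand) and Lsm8 (chr6:18848495-18848634, plus strand), which encodes a subunit of the ring that binds U6 small nuclear RNA, held 2 GC boxes each. Hsd3b7 (chr7:127800472-127800608, plus strand), a gene of bile acid synthesis, held 1. No GC box stood in the stretches of Fign (chr2:64098039-64098121, minus strand), Commd9 (chr2:101886073-101886216, plus strand) and Il31ra (chr13:112580818-112580912, minus strand). Il31ra, a cytokine receptor subunit gene, was the AT-rich one among the 7 at 35.8% G and C, and it held TAAT at 2 places. Over all 15 stretches, 9 held a GC box, 2 held TAAT and 0 held CTAATG, the longer core searched for ISL1. The peaks over these 15 stretches had scores from 9.58 to 16.4. Only those of Wipi1, Igsf10, Galnt5 and Calcrl reached the list median of 15.1.

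Over the full 300 bases of the promoter window, the GC box was found in 10 of the 15 bound promoters, or 66.7% with an exact interval of 38.4 to 88.2%. It was found in 35.2% of all 22862 promoters with 1 start, a share below that interval. TAAT stood in 5 of the 15, or 33.3% (11.8 to 61.6%), against 59% of all promoters. CTAATG and the palindrome TAATTA stood in 0 of the 15, which allows a share of up to 21.8%, against 7.64% and 5.45% of all promoters. CTAATG and TAATTA contain TAAT, so their matches are not separate from it.

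The bound promoters were also richer in G and C, with a median of 60.7% against 52.3%, and their median ratio of observed to expected CpG was 0.599 against 0.374. GC content therefore moved with the GC box, and its part in that share was not tested. The ETS core CCGGAAG was present in 3 of 15 (20%, 4.33 to 48.1%, against 9.12%), the muscle-type E-box CAGCTG in 5 (33.3% against 16.1%), the TEAD core GGAATG in 3 (20% against 14.6%) and CCAAT in 4 (26.7% against 38.2%). MEIS (TGACAG) and FOX (TGTTTAC) cores were in 1 promoter each, 6.67%, against 19.5% and 3.56%. The motif AGATAA, bound by GATA family proteins, and the T-box motif GGTGTGA were in 0 of 15, against 11.5% and 3.99% of all promoters. NKX2 (CACTTNA) and TATA box (TATAAA) motifs were also in 0, against 11.5% and 14.8%. The longer motif TGACGTCA, for CRE, was likewise in 0, against 1.85%. In this window, the share over all promoters lay inside the interval of the bound ones for the motifs described other than the GC box. For TAAT that ended over the 250 bases before the start alone (26.7%, 7.79 to 55.1%, against 56%) and when starts were not compared (31.8%, 13.9 to 54.9%, against 59%). For the ETS core it ended over the 24 promoters with a peak within 1 kb (29.2%, 12.6 to 51.1%, against 9.12%), and for the TATA box too (0 of 24, up to 14.2%, against 14.8%). A match or its absence describes these letters only.

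**Figure D1:**
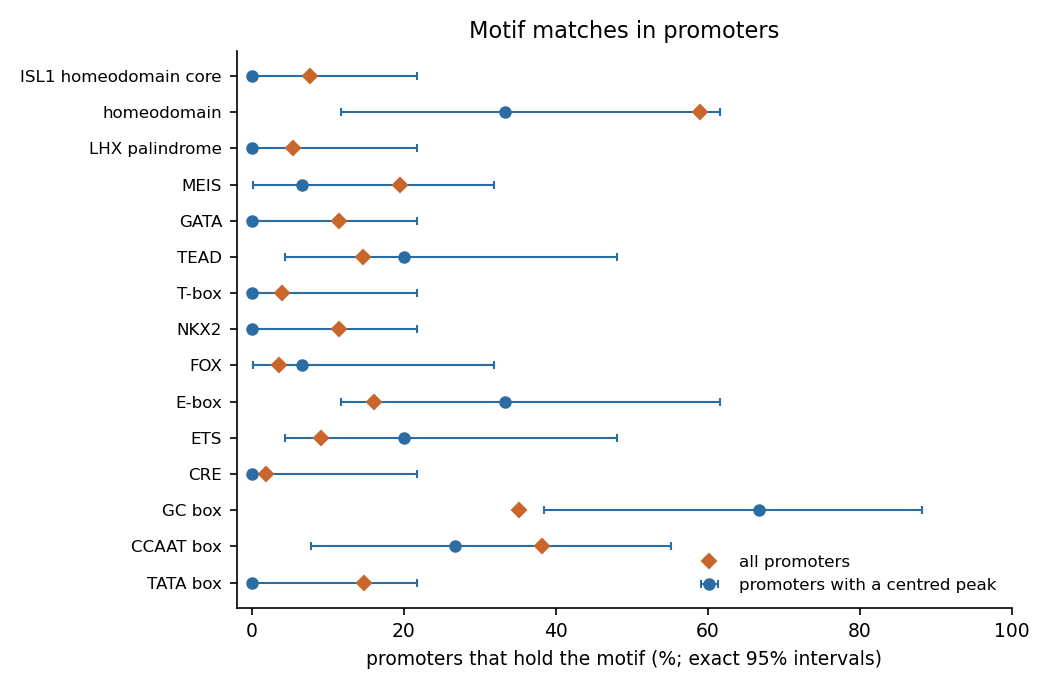
Percent of promoters that hold each of 15 motifs on either strand, for the 15 promoters with an ISL1 peak centred in the 300-base window (blue circles, bars exact 95% intervals) and for all 22862 promoters with 1 start (orange diamonds). The GC box, at 66.7% against 35.2%, has an interval that lies apart from the value of all promoters in this window and set.

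Position relative to the TSS was strongly uneven close to genes. Within 1 kb there were 53 peaks, 43 upstream and 10 downstream, so that 81.1% (68 to 90.6%) lay before the start of transcription. From 1 to 30 kb the order turned, with 123 upstream and 191 downstream of 314, or 39.2% upstream (33.7 to 44.8%). The difference between those shares was 42 percentage points, with a Newcombe 95% interval of 28.3 to 51.8.

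The kilobase before the start, with these 43 upstream peaks, held more peaks than any other kilobase on either side. The next fullest kilobase, from 4 to 5 kb downstream, held 14, and the first kilobase downstream held 10. Peak density per kilobase of distance, both sides together, was 53 within 1 kb, 15.5 from 1 to 5 kb, 10.8 from 5 to 10 kb and again 10.8 from 10 to 20 kb, and 9 from 20 to 30 kb. Beyond the limit it was 8.45 from 30 to 50 kb and 5.72 from 50 to 100 kb. Density thus fell with distance, with no step at 30 kb. The amount of genome at each distance from a start was not measured, and its part in this fall was not tested.

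**Figure D2:**
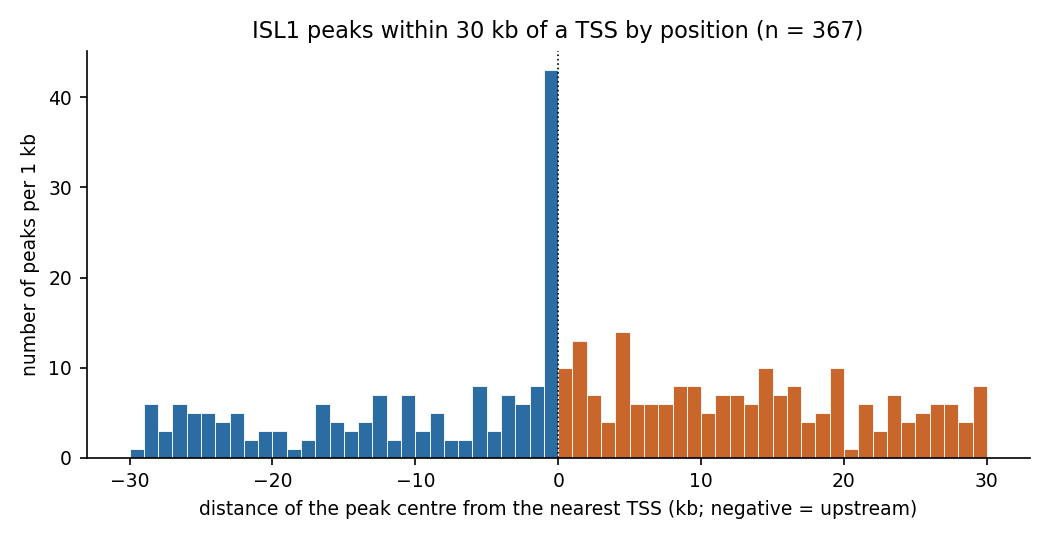
Number of peaks in each 1 kb step of distance from the nearest TSS, upstream (blue, negative) and downstream (orange), for all 367 peaks within 30 kb. The kilobase before the TSS holds 43 peaks and the fullest of the others holds 14.

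Over the whole 30 kb, 166 peaks were upstream and 201 downstream. The upstream share of 45.2% (40.1 to 50.5%) was 5.36 points above the 39.9% of the more distant peaks, an interval of −0.439 to 11.2 that includes 0. The shares by distance were 38.7% from 1 to 5 kb, 37% from 5 to 10 kb, 36.1% from 10 to 20 kb and 44.4% from 20 to 30 kb. Farther out they were 43.2% from 30 to 50 kb, 43.4% from 50 to 100 kb and 37.5% beyond 100 kb. The intervals of these bins overlap one another, and the first kilobase stands alone.

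**Figure D3:**
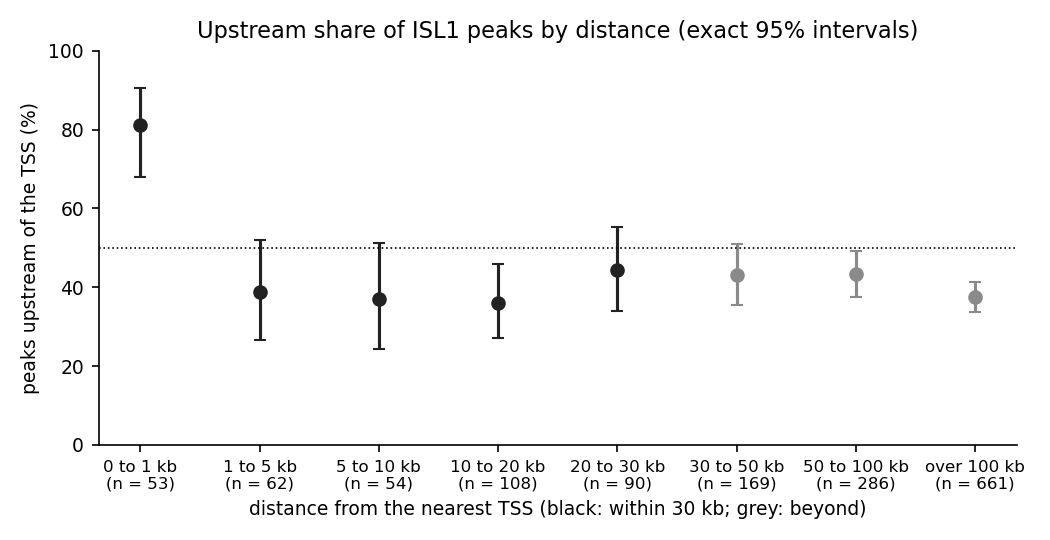
Percent of ISL1 peaks lying upstream of the nearest TSS by distance, with exact 95% intervals; black points are peaks within 30 kb and grey points the rest, and the dotted line marks 50%. The first point, 81.1% of 53 peaks, lies above all the others, which run from 36.1 to 44.4%.

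By the authors' annotation, introns held 174 of the 367 peaks (47.4%), intergenic DNA 122 (33.2%) and promoters 48 (13.1%). Exons held 10, transcription termination sites 8, 3′ UTRs 2, noncoding exons 2 and 5′ UTRs 1. Among peaks beyond 30 kb, 38.6% were intronic and 60.6% intergenic. The intronic share near genes was therefore 8.79 points higher (2.97 to 14.6) and the intergenic share 27.3 points lower. Promoter peaks can only lie near a start, so that class follows from the choice by distance, and its peaks reached from 918 bp upstream to 212 bp downstream.

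Intronic peaks near a TSS were often in the first intron. Of the 174, 84 (48.3%) were in intron 1, against 65 of 431 (15.1%) of the intronic peaks beyond 30 kb, a difference that distance from the start itself bears on. In 145 of the 174 (83.3%) the gene around the peak was also the nearest gene. Among the others, Mir204 was nearest to a peak with a score of 23.3 in intron 6 of Trpm3, a cation channel gene, and a peak nearest to Lpar6 had a score of 16.4 in intron 17 of Rb1, the retinoblastoma tumour suppressor gene. The Rb1 example was chosen after its value was seen.

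Intergenic peaks differed in side. Within 30 kb, 86 of 122 (70.5%) were upstream of the nearest TSS, against 339 of 676 (50.1%) farther away, a difference of 20.3 points (10.9 to 28.6). The lengths of the nearest genes were not compared.

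Peaks within 30 kb were of slightly lower score than the rest. Their median was 13.7, with quartiles 12.3 and 17.8 and a range of 8.21 to 84.8, and the rest had a median of 15.1 with the same quartiles and a range of 8.21 to 52. A score at or above the list median of 15.1 was reached by 169 of 367 (46%) near a TSS and by 589 of 1116 (52.8%) elsewhere, 6.73 points fewer (−12.5 to −0.833). At the 75th percentile, 17.8, the shares were 27.8% and 29.9%, an interval of −7.27 to 3.33 points that includes 0.

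Scores were lowest in the first kilobase by their median, which was 12.3 there (quartiles 10.9 and 15.1), and 16 of 53 peaks (30.2%) reached the list median, against 153 of 314 (48.7%) from 1 to 30 kb, a difference of −18.5 points (−30.5 to −4.11). The 314 peaks from 1 to 30 kb had a median of 13.7, the score step just below the 15.1 of the peaks farther out, with the same quartiles. Medians were 13.7 from 1 to 5 kb, 14.4 from 5 to 10 kb, 15.1 from 10 to 20 kb and 13.7 from 20 to 30 kb. The highest score in the first kilobase was 23.3, below the top scores of each of the other bins. Upstream and downstream peaks had the same median, 13.7, and the same quartiles.

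The focus ratio, the deposited measure of how tightly the tags of a peak gather at its centre, had a median of 0.75 (quartiles 0.684 and 0.818) near a TSS and 0.733 elsewhere. It was at or above the list median in 201 peaks (54.8%) near a TSS against 48.7% of the rest, a difference of 6.02 points (0.127 to 11.8). Within 1 kb its median was 0.769. Repeats were named in the detailed annotation of 30 peaks (8.17%), against 7.71% of the others.

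**Figure D4:**
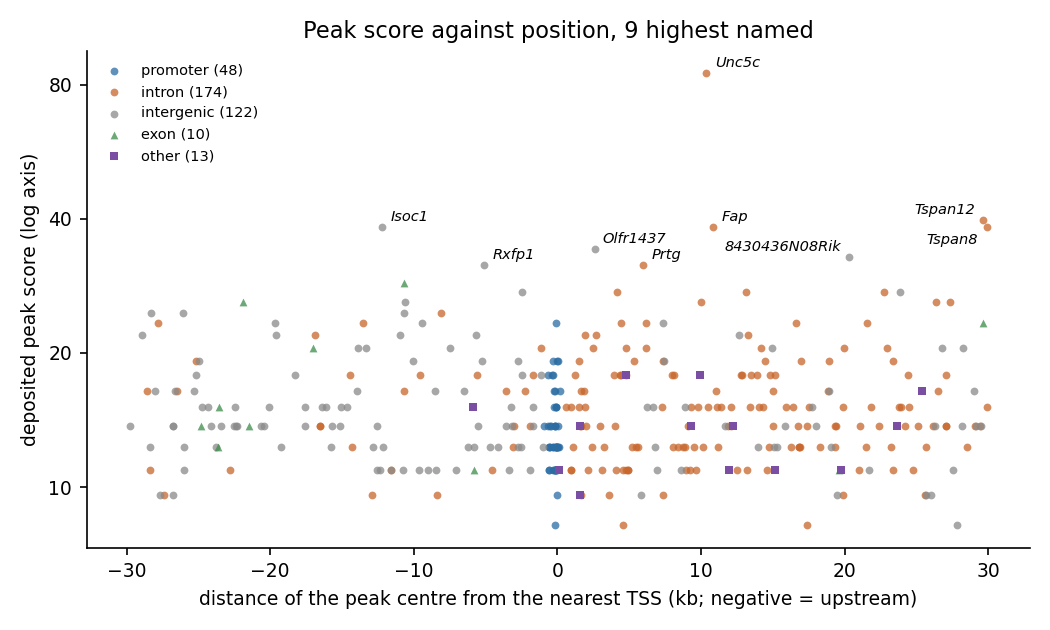
Deposited score (log axis) of each of the 367 peaks against its distance from the nearest TSS, coloured by annotation class, with the nearest genes of the 9 highest named. Scores in the promoter class stay at or below 23.3, and the highest, 84.8, lies 10.4 kb inside Unc5c.

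The strongest peak of the whole list lay in Unc5c, which encodes a netrin receptor of the UNC5 family known from axon guidance. It stood 10.4 kb downstream of the TSS in intron 1 (chr3:141138839-141138983, mm9) with a score of 84.8. If 1 step is 1 tag, counting alone would give a score of 65 to 109. The same intron held peaks with scores of 12.3 at 18.3 kb and 26 at 26.3 kb. All 3 belonged to a run of 9 peaks, each within 50 kb of the next, that covered 106 kb and went on past the 30 kb limit. No other gene had as strong a peak, the next score near a TSS being 39.7.

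That next peak was in intron 5 of Tspan12, 29.7 kb from its start (chr6:21772777-21772921, mm9), with a second peak of 13.7 in the same intron. TSPAN12 is a tetraspanin that takes part in Norrin and Frizzled signalling. Another tetraspanin gene, Tspan8, had peaks of 38.3 and 13.7 in its intron 8, 0.843 kb apart. If 1 step is 1 tag, the counting intervals of 39.7 (26.6 to 57) and 38.3 (25.5 to 55.4) overlap, so their order is not settled.

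Fap, a membrane protease of activated fibroblasts, and Isoc1 each had a peak of 38.3, in intron 2 and 12.2 kb upstream. Olfr1437, an olfactory receptor gene, followed at 34.2, the RNA gene locus 8430436N08Rik at 32.8, and Rxfp1, the relaxin receptor, and Prtg, an immunoglobulin superfamily receptor, at 31.5 each. These 9 peaks were the ones near a TSS with a score over 30, or 2.45%, against 43 of the rest (3.85%), with a difference of −1.4 points (−3.14 to 0.955). None of the 9 was a promoter peak, and those of Olfr1437 and Rxfp1 had a repeat named in their detailed annotation.

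Scores just below were 28.7 in the peak nearest to Atp5j and 27.4 at Gclc, Filip1l, Tmtc1, Anapc13 and Prl8a2. Gclc encodes the catalytic subunit of the first enzyme of glutathione synthesis, Anapc13 a subunit of the anaphase-promoting complex and Prl8a2 a prolactin-family hormone. The counting interval of a score of 27.4, from 16.7 to 42.3, takes in every stronger score except that of Unc5c. At the edge of the choice, the last peaks inside the limit were those of Tspan8 at 29893 bp (38.3) and Galnt3 at 29909 bp (15.1), and the first outside were those of Snx25 at 30045 bp (13.7) and Dph6 at 30114 bp (17.8).

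The 16 peaks within 1 kb of a TSS whose score reached the list median stood at genes of several kinds. Gem, a small GTPase that restrains voltage-gated calcium channels, had a peak of 19.2 at 315 bp upstream. Popdc2, a cyclic AMP binding Popeye protein of heart muscle, had one of 15.1 at 90 bp upstream (chr16:38362097-38362241, mm9). Calcrl, the receptor subunit for calcitonin gene-related peptide and adrenomedullin, had one of 15.1 at 98 bp. Pdlim3, a PDZ and LIM protein of the Z-disc, had 17.8 at 317 bp, and Foxp2, a forkhead transcription factor, 17.8 at 637 bp.

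The rest of the 16 stood at genes of mixed kinds. Cox18, which inserts a subunit of cytochrome c oxidase, had 15.1 at 68 bp upstream, Vimp (Selenos), a selenoprotein of the endoplasmic reticulum, 17.8 at 396 bp, and Galnt5, a glycosyltransferase, 15.1 at 235 bp. Dnm3os, the RNA that hosts Mir199a-2, had 19.2 at 67 bp downstream. The strongest of them was 8430436N08Rik at 67 bp upstream with 23.3. Igsf10 (16.4), 2610005L07Rik (19.2), 1600014C10Rik (16.4) and Wipi1 were further ones, and the peaks of 8030443G20Rik (15.1) and Tnfaip8 (15.1), 614 and 939 bp downstream, were annotated to introns. The promoter annotation of the 2610005L07Rik peak named another gene, 6820431F20Rik.

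The 5 peaks closest to a start were those of Nfs1 at 8 bp, Fign at 11 bp, Pkd1 and Rsu1 at 12 bp each and Tnfaip1 at 19 bp. The authors' promoter annotation named another gene for the Nfs1 peak, Romo1, and for the Tnfaip1 peak, Ift20. NFS1 is the cysteine desulfurase of iron-sulfur cluster assembly, fidgetin (Fign) severs microtubules and Pkd1 encodes polycystin-1. Their scores ran from 9.58 at Rsu1 to 12.3, all below the list median.

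The 367 peaks were nearest to 332 genes, 1.27% of the 26220 curated RefSeq genes. Of these, 260 were protein-coding, 1.24% of the 21031 in that class. One peak each was found for 307 genes, 2 for 19, 3 for 4, 4 for 1 and 6 for 1. Among the 25 genes with 2 or more, 12 had both upstream and downstream peaks, each counted from the start nearest to it. These can be different starts of the same gene, as at Aopep, whose peaks spanned 300 kb. For 62 of the 332 the list held a further peak beyond 30 kb, and for 270 it did not.

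Atp5j had the 6 peaks, all upstream of its TSS and every one inside an exon of the neighbouring gene Gabpa. GABPA is a DNA-binding protein of the ETS class. The peaks lay in exons 3, 5, 6, 8, 9 and 10 of its 10, over 19.2 kb of chromosome 16 (84841577 to 84860735, mm9), with scores of 10.9, 28.7, 20.5, 13.7, 26 and 13.7. They were 6 of the 10 peaks in exons within 30 kb, and 0 of the 1116 peaks farther away were in the same annotation class, which allows a share of up to 0.33%. Noncoding exons and 3′ UTRs are separate classes and held 4 and 3 of the farther peaks. The other exonic peaks were in exon 5 of Cdh26 (23.3), exon 9 of Gabra4 (15.1), exon 10 of Clhc1 (12.3) and exon 5 of Tax1bp1 (10.9), named after their values were seen. The list held 0 peaks annotated to an intron of Gabpa, and the cause of this pattern was not tested.

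8430436N08Rik had 4 peaks, 2 of them in its promoter (23.3 and 12.3), 1 in an intron (9.58) and 1 past its end (32.8). Mbnl1, a regulator of splicing in muscle, had 2 at about 11 kb upstream, 0.372 kb apart, with scores of 26 and 21.9, and 1 of 16.4 in intron 1. Aopep, an aminopeptidase gene listed as 2010111I01Rik, had 3, from 15.1 to 23.3, and Gm5523 had 3, from 12.3 to 20.5. Rxfp1 paired its peak of 31.5 with another of 12.3 at 0.365 kb, both with a repeat named in the detailed annotation. Filip1l had peaks of 27.4 and 21.9 that spanned 166 kb, so they were not close neighbours.

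Peaks with a close neighbour made up a smaller share here than farther from genes. Another peak of the list lay within 10 kb of 35 of the 367 (9.54%) and of 164 of the 1116 (14.7%), a difference of −5.16 points (−8.56 to −1.2). Within 1 kb the numbers were 14 (3.81%) and 74 (6.63%), −2.82 points (−5.04 to −0.00336). Neighbours come in pairs or runs, so the peaks counted here are not separate events. Both intervals treat them as separate and are therefore too narrow, and no difference can be settled from them. The 14 formed 7 pairs, at Tspan8, Rxfp1, Atp5j, Mbnl1, 8430436N08Rik, Gm5523 and Rubie.

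Genes that work with ISL1 or belong to its protein classes were examined as a list of 27 LIM-complex and homeodomain partners. Of these, 4 were nearest to a peak within 30 kb, 14.8% (4.19 to 33.7%). Lmo4, a LIM-only protein that binds LDB1 as ISL1 does, had peaks of 17.8 in intron 1 at 1.21 kb and of 12.3 at 15.3 kb, and its relative Lmo1 had 17.8 in intron 1. Tle4, a Groucho co-repressor, had 12.3 in intron 4. The 4 peaks at these 3 genes lay downstream of the TSS.

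Of 32 axon guidance genes, 4 were nearest to a peak (12.5%, 3.51 to 29%). Besides Unc5c they were the class 3 semaphorin ligands Sema3c (15.1 upstream and 13.7 in intron 2) and Sema3d (17.8 in intron 1), and Nrp2, a neuropilin receptor for such ligands (10.9 at 10.8 kb upstream). Regulators of small GTPases gave 5 of 44 (11.4%, 3.79 to 24.6%). The GTPase-activating proteins were Dlc1 (19.2), Arhgap29 (12.3) and Arhgap6 (8.21, the lowest score in the list, shared with 3 other peaks near a TSS and 1 farther away), and the exchange factors were Fgd4 (12.3, in the promoter) and Vav3 (9.58). The lower ends of these 3 lists' intervals were above the 1.27% of all genes. The lists were drawn up with results of these data known, so this describes them and is no independent evidence.

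Among the genes of pacemaking, Isl1 had 2 peaks in the list, the nearer at 185 kb, and 0 within 30 kb, and the channel gene Hcn4 and the transcription factor genes Shox2 and Tbx3 were nearest to 0 peaks at any distance. Of 33 pacemaker and conduction transcription factors, Foxp1 (17.8 in intron 2) and Foxp2 were nearest to a peak within 30 kb (6.06%, 0.743 to 20.2%). Of 40 ion channel and calcium clock genes, there were 2 (5%, 0.611 to 16.9%), and both intervals take in the 1.27% of all genes. Camk2d, the calcium and calmodulin dependent kinase of heart, had 15.1 at 24.3 kb upstream and 12.3 in intron 2. The peak nearest to Pln, the inhibitor of the sarcoplasmic calcium pump, had 9.58 and lay 12.9 kb upstream in intron 3 of Cep85l.

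Popdc2 was the 1 gene of 39 in autonomic and cyclic AMP signalling (2.56%). Sarcomere and Z-disc genes gave 2 of 33 (6.06%), Pdlim3 and Nebl, the gene of nebulette, with 24.6 at 10.7 kb upstream. BMP, WNT, Notch and growth factor signalling gave 2 of 50 (4%), the ligand gene Bmp6 (13.7 upstream) and the WNT effector gene Tcf7l2 (15.1 in intron 5). Adhesion and matrix genes gave 1 of 43 (2.33%), the proteoglycan gene Spock1 (16.4 in intron 2). Textbook targets of ISL1 in the second heart field gave 0 of 20, and those in neurons and pancreatic islets 0 of 27, although 1 of the latter, Ebf2, held a peak of 10.9 in its intron 9 that was nearest to 4930438E09Rik. The lower ends of the intervals of all lists in this and the preceding paragraph lay below 1.27%.

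Lists for other cell types were counted in the same way, and the intervals of all of them take in 1.27%. Working myocardium had 2 of 24 (8.33%, 1.03 to 27%), Nebl and Pln. Fibroblast and epicardial genes had 2 of 24 (8.33%), Fap and the intermediate filament gene Vim (16.4 in intron 2). Endothelial genes had 1 of 22 (4.55%), the transcription factor gene Ets1 (15.1 at 20.1 kb upstream), and liver genes 1 of 23 (4.35%), Tdo2, a tryptophan-degrading enzyme (15.1 in intron 11). Housekeeping genes (36), blood and immune genes (24) and genes of autonomic neurons and glia (24) had 0.

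**Figure D5:**
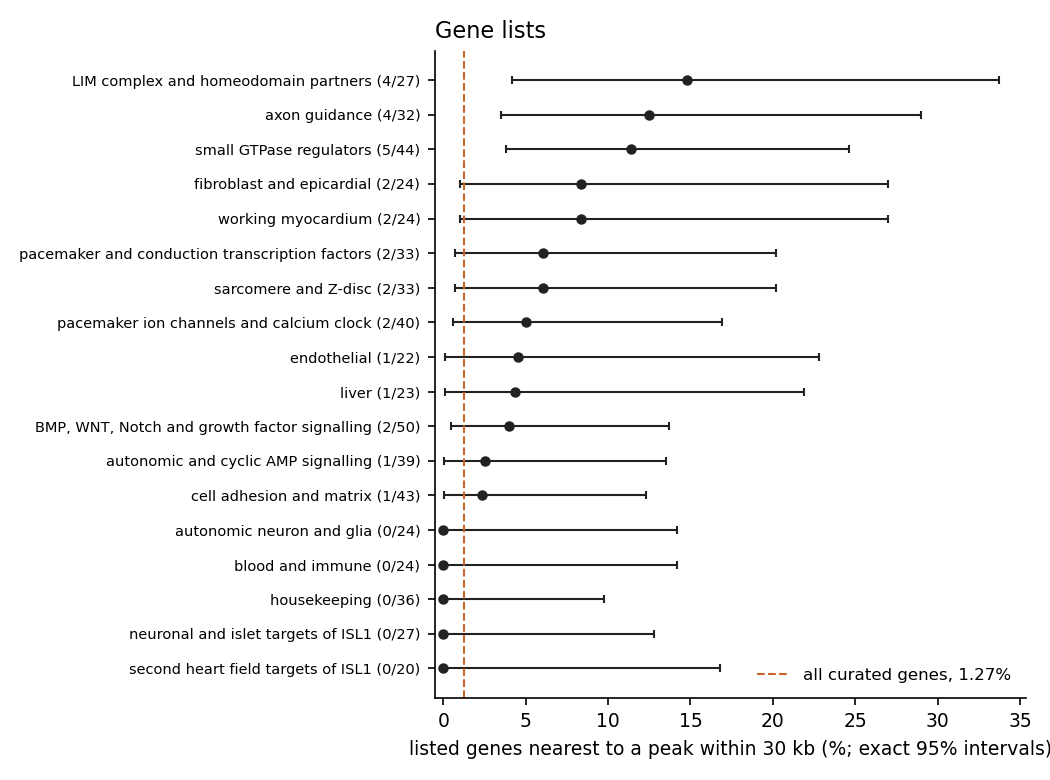
Percent of the genes of each of 18 lists that are nearest to an ISL1 peak within 30 kb, with exact 95% intervals and, in brackets, the genes found of those listed; the dashed line is the 1.27% of all curated genes. The LIM partners (14.8%), axon guidance (12.5%) and small GTPase regulators (11.4%) are the lists whose intervals lie above the line.

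Grouped by symbol, Fox genes had 4 of 49 (8.16%, 2.27 to 19.6%), which were Foxp1, Foxp2, Foxf2 (12.3 at 6.81 kb downstream) and Foxn3 (10.9 at 7.05 kb upstream). Tetraspanins had 2 of 21 (9.52%, 1.17 to 30.4%), and semaphorins 2 of 20 (10%, 1.23 to 31.7%). Large families sat near or below the level of all genes. MicroRNA genes had 14 of 1190 (1.18%), zinc finger Zfp genes 5 of 406 (1.23%), solute carriers 3 of 397 (0.756%) and olfactory receptors 1 of 1126 (0.0888%, 0.00225 to 0.494%). Vomeronasal receptors had 0 of 360, Sox genes 0 of 23 and Tbx genes 0 of 15.

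The peaks were found on all 20 chromosomes of the list. They made up from 18.3% of the peaks on chromosome 4 to 38.8% on chromosome 9 (19 of 49). Chromosome 3, which holds Unc5c, Mbnl1, Rxfp1, Lmo4 and Camk2d, had 40 of its 149 peaks (26.8%), and chromosome 16 had 24 of 76 (31.6%). Chromosome X had 4 of 12 and chromosome 7 had 9 of 36 (25%). Shares by chromosome carry wide counting intervals, 25.2 to 53.8% for chromosome 9, and gene density per chromosome was not tested for its part in them.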

How the data were processed

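The series holds ISL1 ChIP-seq of 1 library from sorted neonatal sinoatrial node cells, given as a peak list annotated to mm9. Bowtie, HOMER and mm9 are named per the submitters' processing notes, and the peak table's name, per the file headers, refers to an input. For versions and peak-calling settings: not given in the sources used here. A deposited peak score of no stated scale and a focus ratio, a fraction deposited beside it, describe each peak. Distances, annotation classes and nearest genes are the authors', per the file headers. Peaks with an absolute distance of at most 30000 bp were taken, and nothing else was filtered.

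Shares have exact Clopper-Pearson intervals and differences Newcombe intervals, both 95% (scipy 1.17.1, statsmodels 0.14.6, pandas 2.3.3, Python 3.11.15), tested on simulated data. No significance test was made. All 367 peaks matched a gene of RefSeq's table (GRCm38.p6), which served for names and counts. Promoter sequences and the genes extending over them are RefSeq's in GRCm38.p6, matched to peaks by gene and by distance from the start, and peak coordinates were not converted. A promoter's start was accepted where its spacing to the start of a neighbouring gene agreed within 2 bases in both annotations.

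The members and lists were chosen with earlier results of these data known. Named are the nearest genes of the 15 highest scores, the 10 genes with most peaks, promoter peaks of at least the median score and the 5 closest to a start, list genes, up to 4 genes a family, the edge peaks, pacemaker genes and hosts. Genes outside this rule, such as those of the printed sequences and of close pairs, were chosen after their values were seen, and 1 list gene and 1 motif are not reported here. Counts were repeated with limits of 20 and 50 kb, score minimums, no repeats and merged peaks.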

Additional observations from a re-analysis of the deposited data

How the results depend on the processing

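With limits of 20 and 50 kb, a score minimum at the 25th percentile, repeats left out, peaks within 1 kb merged, or without the 6 Gabpa exon peaks (chosen after seeing the data), the upstream share stayed between 44.3 and 46.6% and the median score at 13.7 where no score minimum was set. With scores at or above the median, 169 peaks near 158 genes were left, 53.3% of them intronic, 8 genes had 2 or more and 11 peaks had a neighbour within 10 kb. With a limit of 50 kb, 53 genes had 2 or more peaks and 63 peaks had a neighbour, and with merging 23 had one. The 50 kb limit takes in 536 peaks, the score minimum leaves fewer, and merging joins close peaks, so these counts follow the settings. The cause of the higher intronic share was not tested. The motif shares stayed within their intervals over 1 kb, over the 250 bases before the start alone, and with starts not compared (chosen after seeing the data), where the GC box stood in 15 of 22 promoters (68.2%). Under some of these settings the share over all promoters fell outside the interval of the bound ones for TAAT, ETS and the TATA box. No paired analysis was possible because the ISL1 and input groups hold 1 library each. A single library without its input and with about 10 score steps at the median limits every order of single peaks.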
